A study of Mus musculus with 15 samples.

Results

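Oxidative phosphorylation subunits are the building blocks of the respiratory chain and the ATP synthase in the inner mitochondrial membrane. The genes described here were chosen by symbol, with earlier results of these data known. Complex I was taken as symbols starting with Ndufa, Ndufb, Ndufc, Ndufs or Ndufv, and complex II as Sdha to Sdhd. Uqcr and Cyc1 stood for complex III, Cycs for cytochrome c, Cox4 to Cox8 for complex IV, and Atp5 for complex V. Assembly factors and Ndufa4l2 were left out, and Ndufa4 was counted in complex IV, where its protein is found. The rule gave 83 genes on 173 probe sets, of 18193 named genes and 45101 probe sets in the table: 34 genes of complex I, 4 of complex II, 9 of complex III, cytochrome c, 18 of complex IV and 17 of complex V. All are nuclear genes, and the subunits that mitochondria encode themselves lie outside the rule.

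Complexes I and II pass electrons from NADH and succinate through ubiquinone to complex III, cytochrome c carries them on to complex IV, which reduces oxygen, and complex V uses the resulting proton gradient to make ATP. Most subunits are made in every tissue, but several subunits of complex IV come in pairs, one form found widely and another found in heart and skeletal muscle, lung or testis. Transcription of the whole set is coordinated by nuclear respiratory factors, estrogen-related receptors and the coactivator PGC-1 alpha (Ppargc1a).

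Expression had been measured on 15 Affymetrix mouse arrays in 4 groups, all of male C57BL6J mice 10 to 12 weeks old. Brain SMC/pericyte cells, isolated by FACS, came from 4 mice with 1 intact copy of the receptor gene Notch3 (Notch3 +/-) and 5 with none (Notch3 -/-), 1 array per mouse by the design text. Aorta explants gave 3 arrays of each genotype, and the labels do not say whether each is a separate mouse; the spread behind their p-values may therefore be technical. The title of the series concerns Notch signalling and ischaemic stroke. Wild-type mice were not analysed here, and every genotype comparison is of no copy against 1 copy. The sources used here do not give the gate of the sort. Brain RNA was purified on columns from cells sorted into lysis buffer and aorta RNA was first extracted with Trizol, so tissue and extraction cannot be told apart. In these bulk samples fewer cells of a type and less RNA per cell cannot be told apart either. Values are scaled intensities, linear and in arbitrary units, and differences are on the log2(intensity + 16) scale, which understates those of dim probe sets.

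Notch3 read 2326 to 2805 in the brain +/- arrays, 150 to 249 in brain -/-, 362 to 453 in aorta +/- and 80.1 to 146 in aorta -/-. In brain, 6 of the 12 smooth muscle markers listed were lower in -/- (adjusted p under 5%), and the summed level of the list was 31185 to 49298 in +/- arrays and 15509 to 24331 in -/- arrays. The only other marker called in a genotype comparison was Notch3 itself, in brain, among 13 tested mural markers. Of all genes tested, 0.191% were called between genotypes in brain and 0% in aorta. The sorted brain cells also carried high signal of other cell types: the tight junction gene Cldn5 of endothelium read 10090 to 21340, Mbp of oligodendrocytes 19040 to 29570 and Ttr of choroid plexus 18110 to 44480, against at most 377, 371 and 10.6 in aorta. Between tissues, 29% of all genes tested were called higher in brain and 25.4% lower in +/-, and 35.3% and 29.8% in -/-. All 10 astrocyte markers, all 8 tested oligodendrocyte markers and 10 of 11 endothelial markers were higher in brain in both genotypes. All 10 fibroblast markers, 9 of 12 smooth muscle markers and 1 endothelial marker were lower in both genotypes. Of the smooth muscle markers 3 were higher in brain in +/- and 2 in -/-. Of the mural markers 10 of 13 were higher in brain in +/- and 9 of 13 in -/-, with 2 and 3 lower. Of choroid plexus and ependyma markers 6 of 7 and 7 of 8 were higher, with 1 lower in each genotype. Among neuron markers 4 of 9 and 6 of 7 were higher in brain, among microglia and macrophage markers 2 of 9 were higher in each genotype and 3 and 4 lower, and among erythroid markers 0 of 2 and 1 of 3 were higher. Their part in the differences between tissues was not tested.

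In sorted brain cells no subunit passed the test between Notch3 genotypes. Of the 83 genes 77 were bright enough to test, and 0 had an adjusted p under 5% (limma, Benjamini-Hochberg over all probe sets), where 0.191% of all 12014 genes tested did. At an unadjusted p under 0.05 stood 6 members (7.79%), against 9.77% of all genes. Most members read lower in -/-, 63 of the 77 tested and 68 of all 83, where 49.2% of all genes tested did. Members share the same 9 arrays, so these counts are not of independent observations. Their median difference was -0.13, against 0.004 over all genes. The median was -0.13 in complex I, -0.03 in complex II, -0.17 in complex III, -0.10 in complex IV and -0.21 in complex V. Without the +/- array H the median of tested members was -0.05, with 45 of 77 lower. Without the -/- array C it was -0.08, with 53 of 77 lower.

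**Figure D1:**
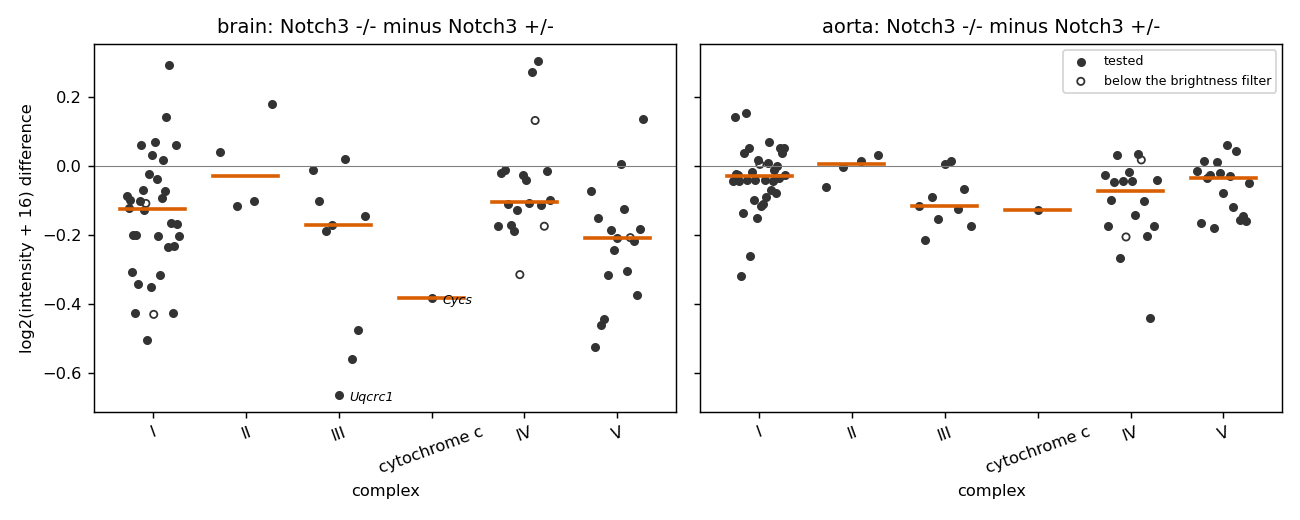
Difference between Notch3 -/- and Notch3 +/- in log2(intensity + 16) for each of the 83 subunit genes at its brightest probe set, in sorted brain cells (left) and aorta (right), by complex. Filled points were tested, open points lay below the brightness filter, and orange bars are the medians of all members of a complex. In brain the points spread from 0.30 down to -0.66 at Uqcrc1; in aorta they lie closer to 0, down to -0.44 at Cox8b.

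Uqcrc1, which encodes core protein 1 of complex III, was the subunit with the smallest p in brain. It read 867, 1050, 1145 and 1004 in the +/- arrays E, G, I and H, and 518, 696, 619, 599 and 758 in the -/- arrays A, B, C, D and F. Every -/- array lay below every +/- array. The difference was -0.66 (SE 0.16, 95% interval -0.996 to -0.331, unadjusted p = 0.000741 in limma), which did not pass after adjustment (adjusted p = 0.168, and 0.0715 to 0.376 over the alternatives). Uqcrc1 was read by a single probe set. In aorta the same gene read 424, 573 and 546 in +/- and 535, 674 and 372 in -/-, with groups that overlap and a difference of 0.01 (SE 0.20). The difference between the tissues in the genotype effect was -0.67 (SE 0.26, unadjusted p = 0.0179, limma adjusted p = 0.99). It was the only member of 78 with an unadjusted p under 0.05 in that comparison, where 5.17% of all genes had one. No member was called there, against 0.0334% of all genes.

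Cycs, the mobile electron carrier cytochrome c, was the other member whose brain arrays did not overlap at the brightest probe set. It read 3734, 3658, 3755 and 4770 in +/- and 2854, 2961, 2714, 3219 and 3441 in -/-, a difference of -0.38 (SE 0.15, limma adjusted p = 0.433). Its other bright probe sets gave -0.28 and -0.09. So at the brightest probe sets 2 of 77 members lay wholly lower and 0 wholly higher, against 2.13% and 1.46% of all genes tested. Some dimmer probe sets did not overlap either. That of Atp5d read 515 to 983 in +/- and 449 to 498 in -/-, and that of Atp5o 222 to 276 and 163 to 221. The share over all dimmer probe sets was not taken.

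The remaining members with an unadjusted p under 0.05 in brain were Atp5b, Ndufb10, Uqcrfs1 and Ndufa3. Atp5b, the catalytic beta subunit of the ATP synthase, read 2027, 2310, 2651 and 1544 in +/- and 903, 1666, 1609, 1578 and 1683 in -/- (difference -0.52, SE 0.21, limma adjusted p = 0.449). The groups overlapped through array H, the lowest of the +/- arrays here. Uqcrfs1, the Rieske iron-sulfur protein of complex III, read 456, 442, 545 and 309 against 147, 286, 327, 384 and 357 (difference -0.56, SE 0.25), and array H was again its lowest +/- array. Ndufb10, an accessory subunit of the membrane arm of complex I, gave -0.51 (609, 514, 373 and 746 against 334, 365, 306, 345 and 600), and Ndufa3, another accessory subunit, -0.43. Both overlapped, with -/- array F reading among the +/- arrays.

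**Figure D2:**
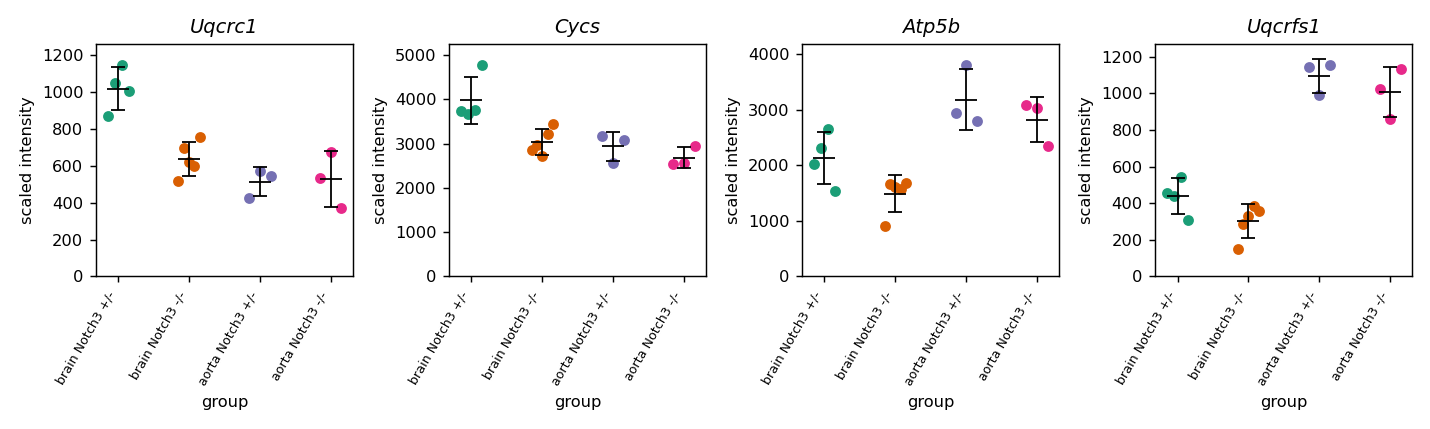
Scaled intensity of Uqcrc1, Cycs, Atp5b and Uqcrfs1 at their brightest probe sets in the 4 groups. Each point is 1 array, and black bars give the mean and SD. Uqcrc1 and Cycs do not overlap between brain genotypes, and all aorta arrays of Uqcrfs1 (860 to 1154) lie above all brain arrays.

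The other core subunits on the list fixed for naming lay closer to 0 in brain at their brightest probe sets. Ndufs1 (75 kDa iron-sulfur subunit of complex I) gave 0.14, Ndufv1 (NADH-binding subunit) 0.06, Sdha (flavoprotein of complex II) 0.04 and Sdhb (its iron-sulfur protein) -0.12. Cyc1 (cytochrome c1) gave -0.01, Cox5a -0.01, Cox5b -0.11 and Atp5a1 (alpha subunit of the ATP synthase) -0.07. The limma adjusted p of these lay between 0.841 and 0.991. Some dimmer probe sets of Ndufv1 and Atp5a1, picked out after their values were seen, read otherwise. The dimmest of Ndufv1 read 676, 822, 625 and 813 in +/- and 407, 581, 553, 570 and 610 in -/-, without overlap. Its remaining probe set averaged 2487 in +/- and 2814 in -/-. Those of Atp5a1 averaged 1824 and 385 in +/- and 1492 and 322 in -/-, with overlap. Core subunits outside that list did not all lie near 0, as Ndufs7, an iron-sulfur subunit of complex I picked out after its values were seen, shows. It read 2540, 3136, 2993 and 8099 in +/- and 2878, 2991, 2586, 2654 and 2752 in -/- (-0.43, SE 0.27, limma adjusted p = 0.64). The groups overlapped, and array H stood far above the rest. Its dimmer probe set gave -0.61 (SE 0.18, unadjusted p = 0.00522, adjusted p = 0.324). Partner subunits had unlike values: Atp5b gave -0.52 and Atp5a1 -0.07, and Uqcrc1 gave -0.66 and Uqcrc2 0.02, differences between genes that were not tested. The largest positive values were those of Cox7c (0.30), Ndufs4 (0.29) and Cox7a2l (0.27), the last known as a supercomplex assembly factor, with adjusted p of 0.668, 0.635 and 0.618.

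Arrays of 1 genotype lay farther apart than the group means. The mean deviation of the 83 genes from their brain mean was 0.117, -0.010, -0.105 and 0.334 in +/- arrays E, G, I and H, and -0.096, -0.059, -0.255, -0.039 and 0.114 in -/- arrays A, B, C, D and F. The groups overlapped (0.084 ± 0.190, SD, n = 4, and -0.067 ± 0.132, n = 5). In array H 67 of the 83 genes read above their brain mean and in array C 13 did. Complex II did not follow the rest in array H: its mean deviation there was -0.177, against 0.446 in complex I, 0.378 in complex III, 0.202 in complex IV and 0.337 in complex V. Array H also had the highest top intensity of any array, 46310, against 22150 to 30220 in the other brain arrays, and after quantile normalization its mean deviation was 0.224.

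**Figure D3:**
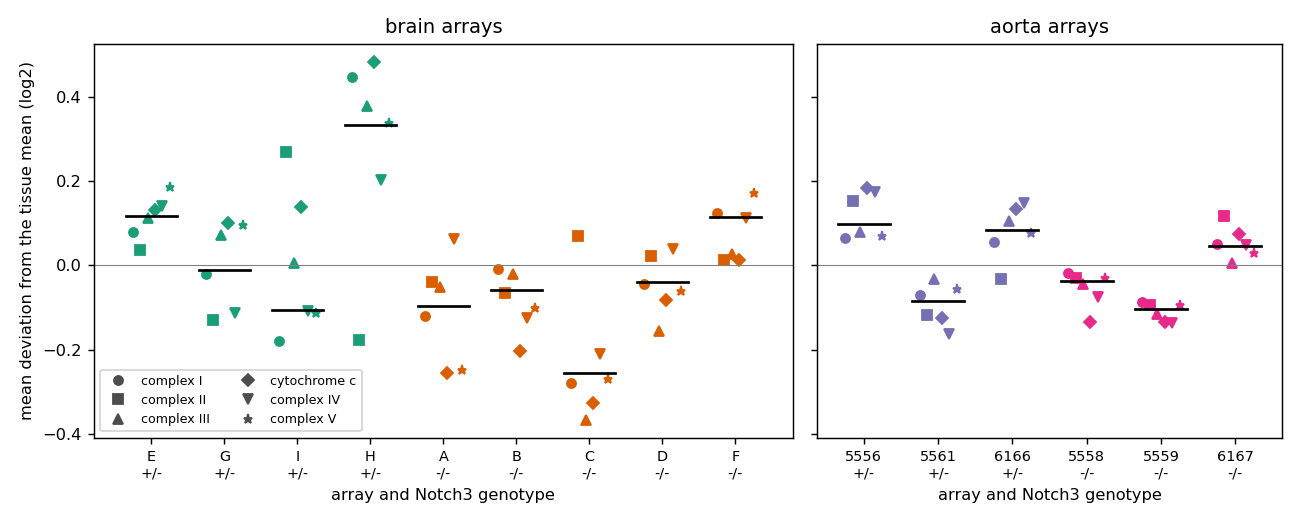
Mean deviation (log2) of the subunit genes of each complex from their mean over the arrays of the same tissue, for the 9 brain arrays (left) and 6 aorta arrays (right). Symbols stand for complexes, colours for the 4 groups, and black bars for the mean over all 83 genes. Array H stands highest at 0.334 with complex II at -0.177, and array C lowest at -0.255.

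In aorta 80 members were tested and 0 were called, as were 0% of all 11632 genes. None had an unadjusted p under 0.05, where 4.4% of all genes had. The median was -0.04, against -0.002 over all genes. Lower were 60 members and higher 20, where 50.6% of all genes tested were lower. The smallest p were those of Uqcrb, a small subunit of complex III (-0.15, SE 0.07), Cox7a2 (-0.14, SE 0.07) and Ndufa3 (-0.32, SE 0.15), each with a limma adjusted p of 0.999. At the brightest probe sets the -/- arrays lay wholly below the +/- arrays for Cyc1, Cox7a2 and Cox6a2. That was 3.75% of those tested, against 4.77% of all genes, and none lay wholly above, against 4.5%. Mean deviations were 0.098, -0.085 and 0.083 in +/- arrays 5556, 5561 and 6166, and -0.037, -0.103 and 0.045 in -/- arrays 5558, 5559 and 6167. They overlapped, and arrays 5561 and 5559 were the lowest in their groups.

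The muscle isoforms of subunits 7a and 8 of complex IV were higher in aorta than in sorted brain cells. Cox8b, the heart and skeletal muscle form of subunit 8 and abundant in brown fat, read 330, 113 and 243 in aorta +/- (arrays 5556, 5561 and 6166) and 166, 71.1 and 277 in aorta -/- (arrays 5558, 5559 and 6167). In brain it read 62.7, 34.3, 6.07 and 5.48 in +/- and 28.3, 20.7, 9.83, 11.6 and 16.6 in -/-. All aorta arrays lay above all brain arrays, with brain minus aorta at -2.61 in +/- (SE 0.48, limma adjusted p = 0.000938) and -2.35 in -/- (SE 0.33, adjusted p = 3.37e-05). Cox8b was dim in brain and passed the brightness filter through its aorta arrays, where it was high. In -/- it stayed above that filter in 13 of the alternatives, against 17 for Cox7a1. Cox7a1, the heart and muscle form of subunit 7a, read 176, 60.4 and 155 in aorta +/- and 107, 90.1 and 159 in aorta -/-, against 79.5, 43.7, 42.1 and 30.0 and 49.8, 58.3, 38.4, 55.4 and 27.6 in brain. Its difference was -1.12 in both genotypes (adjusted p = 0.0188 and 0.000813). In +/- the arrays overlapped, and the call was lost without aorta array 5556 (adjusted p = 0.0928) or 6166 (0.083).

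The fat markers Ucp1, Cidea and Adipoq were high and low in nearly the same aorta arrays as Cox8b. Ucp1, the uncoupling protein of brown fat, read 629, 105 and 481 in aorta +/- and 353, 203 and 480 in aorta -/-, and at most 36.2 in brain. Cidea, a lipid droplet protein of brown fat, read 484, 262 and 553, then 354, 288 and 559, and the adipocyte hormone Adipoq 1304, 589 and 1243, then 577, 529 and 1108, with at most 36.4 and 15.0 in brain. Arrays 5561 and 5559, lowest for Cox8b, were also the lowest of their genotype for Ucp1, Cidea and Adipoq. The same arrays had the lowest mean deviation of all 83 subunit genes in their genotype (-0.085 and -0.103). The remaining fat markers are not given by array here. The summed level of the 10 measured brown fat markers was 1988 to 3146 and 2219 to 3076 in aorta (+/- and -/-) and 955 to 1186 and 842 to 1274 in brain, where Ucp1, Cidea, Otop1, Cpn2 and Slc27a2 stayed under 50 on every array. For the 12 general adipocyte markers it was 8162 to 12373 and 6079 to 10753 in aorta, against 1518 to 1887 and 1432 to 1669. Lower in brain were 4 of 7 tested brown fat markers in each genotype, and 8 of 10 and 6 of 9 adipocyte markers. Of all genes, 25.4% in +/- and 29.8% in -/- were called lower in brain, and 29% and 35.3% higher. Of the cardiac markers 3 of 7 and 2 of 6 were lower. The cardiac list summed to 1252 to 1652 and 943 to 1218 in aorta (+/- and -/-), against 672 to 918 and 587 to 1015 in brain. Under 50 on every array were 4 of its 14 genes in aorta +/- and 6 in aorta -/-, with Myl2, Tnni3, Nppa and Csrp3 in both. Tnnt2 read 156 to 417 in aorta, and Ryr2, the highest of the list there, averaged 279 and 280. The skeletal muscle markers summed to 304 to 424 in aorta, with 10 of 14 under 50 on every array, and 1 of 4 and 2 of 5 tested were higher in brain. The part of fat tissue or cardiac muscle in the level of Cox8b and Cox7a1 was not tested.

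**Figure D4:**
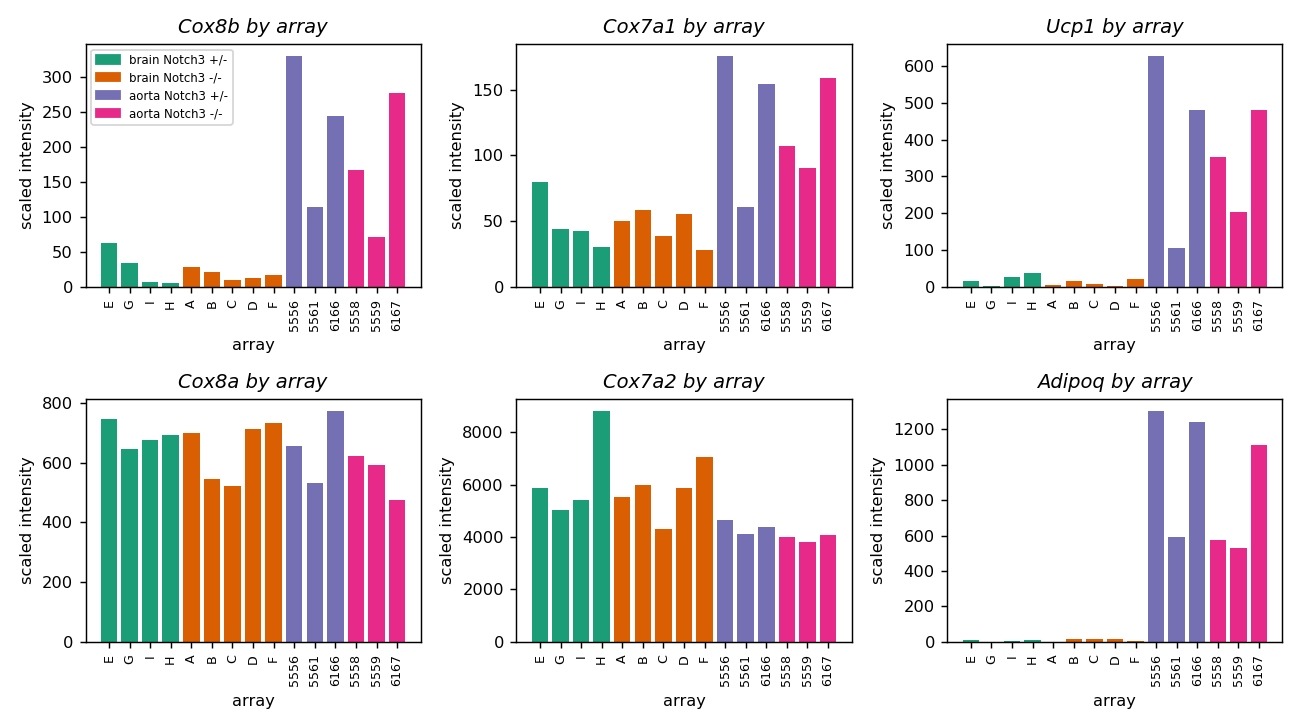
Scaled intensity on each of the 15 arrays of Cox8b and Cox7a1 (muscle and brown fat isoforms), of their widely expressed counterparts Cox8a and Cox7a2, and of the fat markers Ucp1 and Adipoq; bars start at 0 and colours mark the 4 groups. Cox8b, Ucp1 and Adipoq are higher in every aorta array than in every brain array, and within each aorta genotype lowest in array 5561 (+/-) or 5559 (-/-); Cox8a, at its brightest probe set, overlaps between the tissues.

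The widely expressed partners gave a tissue difference that depended on the probe set. At its brightest probe set Cox8a read 748, 646, 676 and 693 in brain +/-, 701, 546, 520, 714 and 734 in brain -/-, 657, 532 and 774 in aorta +/- and 623, 593 and 474 in aorta -/-. The tissues overlapped in both genotypes (0.09 and 0.18, limma adjusted p = 0.67 and 0.326). At its other tested probe set Cox8a read 162, 580, 921 and 503 in brain +/- and 333, 480, 257, 811 and 157 in brain -/-, against 1220, 987 and 1491 and 1313, 1108 and 837 in aorta. There every aorta array lay above every brain array of its genotype (-1.37 and -1.56, adjusted p = 0.0227 and 0.00244), as for Cox8b. Cox7a2 read 5026 to 8822 in brain +/- and 4306 to 7051 in brain -/-, against 4129 to 4634 and 3823 to 4098 in aorta. It gave 0.48 in +/- (adjusted p = 0.068) and 0.52 in -/- (adjusted p = 0.00726), but its dimmer probe set gave -0.72 and -0.79 (adjusted p = 0.00539 and 0.000594), the direction of Cox7a1. Cox7a2l gave 0.36 and 0.60 (adjusted p = 0.0715 and 0.00186), and its other probe sets 0.09 and 0.42, and -0.94 and -0.97.

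The stretches of 250 bases before the start of these 4 genes are shown because they set the muscle form beside the common form of the same 2 subunits; the tissue difference was of unlike direction or size between the forms at the brightest probe set of each gene, and of the same direction at the dimmer probe sets of Cox8a and Cox7a2. They are from RefSeq's GRCm38.p6, written 5′ to 3′ on the strand of the gene, with capitals for the motifs found, on either strand, among those searched: the CCAAT box (CCAAT, which reads ATTGG on the other strand), the GC box (GGGCGG), the E-box (CAGCTG), the TATA box (TATAAA), a MEF2 site (CTATTTTTA), an estrogen-related receptor site (CAAGGTCA), an ETS and GABP site (CCGGAAG), a YY1 site (AAGATGGC) and the core of the site of nuclear respiratory factor 1 (NRF1, CGCATGCG). None of the matches printed overlaps another.
Cox7a2 (chr9:79759854-79760103, minus strand): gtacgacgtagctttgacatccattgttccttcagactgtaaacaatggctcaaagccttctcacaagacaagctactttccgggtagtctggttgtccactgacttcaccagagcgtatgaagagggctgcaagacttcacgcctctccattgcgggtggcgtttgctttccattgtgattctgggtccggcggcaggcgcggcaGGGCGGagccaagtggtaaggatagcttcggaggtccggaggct
Cox7a1 (chr7:30183921-30184170, plus strand): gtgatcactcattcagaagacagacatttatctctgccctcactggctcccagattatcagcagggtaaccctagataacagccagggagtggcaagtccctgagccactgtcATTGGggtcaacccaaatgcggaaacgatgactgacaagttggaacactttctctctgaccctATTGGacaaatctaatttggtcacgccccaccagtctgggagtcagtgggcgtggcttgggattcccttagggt
Cox8a (chr19:7217617-7217866, minus strand): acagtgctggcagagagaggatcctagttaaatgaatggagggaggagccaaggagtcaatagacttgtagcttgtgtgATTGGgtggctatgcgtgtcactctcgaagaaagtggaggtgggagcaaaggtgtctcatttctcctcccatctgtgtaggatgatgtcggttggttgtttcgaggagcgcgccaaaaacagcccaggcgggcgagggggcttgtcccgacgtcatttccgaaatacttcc
Cox8b (chr7:140900447-140900696, minus strand): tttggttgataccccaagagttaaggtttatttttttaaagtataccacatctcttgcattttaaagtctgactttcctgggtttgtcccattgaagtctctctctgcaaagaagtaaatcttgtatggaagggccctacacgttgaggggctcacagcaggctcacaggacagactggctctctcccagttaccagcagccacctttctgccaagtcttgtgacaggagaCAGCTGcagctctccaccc
Cox7a2 held a GC box beginning 44 bases before the start, Cox7a1 a pair of CCAAT boxes at 137 and 74 bases, Cox8a a CCAAT box at 171 bases and Cox8b an E-box at 19 bases. Of all 27025 genes with a promoter in the table, 37.5% held CCAAT, 35.4% GGGCGG and 14.7% CAGCTG. No match says only that these letters are not in this window.

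The remaining isoform families were read as follows. Cox4i1, the common form of subunit 4, gave 0.04 and -0.11 between tissues (adjusted p = 0.881 and 0.609). Cox4i2, the lung form, was dim everywhere: 46.1, 38.0, 64.9 and 127 in brain +/-, 92.3, 52.4, 66.5, 46.2 and 58.3 in brain -/-, 54.7, 30.7 and 68.2 in aorta +/- and 33.1, 52.6 and 41.4 in aorta -/- (0.27 and 0.42, adjusted p = 0.529 and 0.107). Its tissues overlapped in both genotypes.

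Cox6a1, the common form of subunit 6a, read 15310 to 31022 in brain +/- and 13374 to 18985 in brain -/-, against 5988 to 7348 over both aorta groups (1.56 and 1.35, limma adjusted p = 0.000312 and 1.67e-06), while its dimmer probe set gave 0.11 and -0.24. Cox6a2, the heart and muscle form, was higher in brain as well: 120, 91.9, 98.0 and 97.5 in +/- and 123, 66.5, 73.5, 82.9 and 98.0 in -/-, against 67.3, 70.0 and 65.8 and 56.1, 65.5 and 41.4 in aorta. No brain array lay below an aorta array of its genotype. The difference was 0.49 and 0.56 (adjusted p = 0.0421 and 0.0301), and leaving out brain array E or any 1 aorta array in +/-, or A, F, 5558 or 6167 in -/-, put it above 5% (adjusted p 0.0577 to 0.142), as did quantile normalization (0.38 and 0.42, adjusted p = 0.0958 and 0.0861) and no filter on brightness (adjusted p = 0.0815 and 0.0598). So the muscle isoform of subunit 6a did not share the direction of those of subunits 7a and 8.

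Of the testis forms, Cox6b2 (7.40 to 47.1) and Cox7b2 (3.22 to 39.5) fell below the brightness filter. Cox8c read 660, 469, 376 and 572 in brain +/- and 723, 320, 536, 664 and 387 in brain -/-, against 325, 221 and 214 and 212, 200 and 248 in aorta. All brain arrays lay above the aorta arrays of their genotype (0.98 and 1.14, adjusted p = 0.00345 and 0.000703), and its dimmer probe set gave 1.001 and 0.606. Atp5g1, Atp5g2 and Atp5g3 encode the same mature ring subunit of the ATP synthase behind different targeting peptides. Atp5g3, the brightest, read 3404 to 5380 in brain +/- and 3328 to 4492 in brain -/-, against 6161 to 6847 and 5967 to 6707 in aorta (-0.52 and -0.75, adjusted p = 0.0352 and 0.000148); in +/- the call was lost without array I, 5556, 5561 or 6166 (adjusted p 0.0632 to 0.121). Atp5g1 (124 to 297 over all arrays) gave -0.05 and -0.19, and Atp5g2 (177 to 370) gave 0.56 and 0.37, of which the value in +/- was called (adjusted p = 0.025). That call was lost without aorta array 5561 (0.40, adjusted p = 0.135) or 6166 (adjusted p = 0.0849), and with probe sets averaged (0.12, adjusted p = 0.586).

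Across all subunits, brain cells and aorta differed about as often as for genes in general. In +/- 43 of 78 members tested were called (55.1%, against 54.4% of all genes), 24 higher in brain (30.8%; background 29%) and 19 lower (24.4%; background 25.4%). In -/-, on other arrays, 50 of 78 were called (64.1%, against 65.1%), 25 higher and 25 lower (32.1% each; backgrounds 35.3% and 29.8%). Complex I had 11 higher and 7 lower of 32 in +/- and 13 and 10 in -/-. Complex II had 1 and 1 of 4 in both, and complex III 4 and 2 of 9, then 3 and 2. Complex IV had 5 higher and 4 lower of 16, then 7 and 4 (medians 0.32 and 0.41). Complex V had 2 and 5 of 16, then 1 and 8 (medians -0.25 and -0.39). Called in either direction were 56.25% and 68.75% of complex IV and 43.75% and 56.25% of complex V. Differences between complexes were not tested. The complex IV median was -0.17 and -0.12 with the probe sets of a gene averaged, and -0.33 and -0.47 with names ending in _at alone. Called the same way in both genotypes were 21 genes higher and 19 lower. The share of all genes called so was not taken, so these counts cannot be set against a background.

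The subunit with the largest tissue difference was Ndufs5, an accessory subunit of complex I on the side of the intermembrane space. It read 90.4, 90.3, 75.1 and 49.6 in brain +/- and 70.4, 52.4, 76.7, 60.9 and 66.1 in brain -/-, against 686, 737 and 817 and 761, 790 and 684 in aorta. All brain arrays lay far below all aorta arrays, with a difference of -3.07 in +/- and -3.23 in -/- (limma adjusted p = 7.06e-07 and 8.97e-10) at its 1 tested probe set. Uqcrh, the hinge protein of complex III, read 125 to 169 and 64.7 to 193 in brain, against 500 to 527 and 472 to 514 in aorta (-1.72 and -2.13), and its other probe set gave -1.934 and -1.995. Ndufa4 read 270 to 517 and 238 to 411 in brain, against 1317 to 1383 and 1256 to 1421 in aorta (-1.88 and -1.94, adjusted p = 2.38e-05 and 3.4e-07).

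Other subunits lay lower in brain with values of similar size. Uqcrfs1 gave -1.32 and -1.75 and Atp5e, the epsilon subunit of the ATP synthase, -1.74 and -2.15, each at its 1 tested probe set. Ndufab1 (the mitochondrial acyl carrier protein) gave -1.55 and -1.42 and Cox6c -1.32 and -1.33, but their probe sets were split in sign. The others of Ndufab1 ran from -0.52 to 0.52 in +/- and from -0.69 to 0.81 in -/-, and with probe sets averaged its difference was -0.22 and -0.31 (adjusted p = 0.254 and 0.103). The other of Cox6c gave 0.52 and 0.48, and the average in +/- was -0.40 (adjusted p = 0.111). Atp5o, the stalk protein that confers oligomycin sensitivity, gave -0.91 and -0.93 at the brightest of its probe sets, which all pointed the same way. Sdhc, a membrane anchor of complex II, gave -0.84 and -0.96; in +/- its call was lost without any 1 aorta array (adjusted p 0.0576 to 0.0609), though its other probe set gave -1.77 and -1.88.

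Higher in brain at their brightest probe sets were Uqcrc2 (1.36 and 1.37), Cyc1 (1.02 and 1.12), Cox5a (1.05 and 1.14), Ndufv1 (1.03 and 1.05) and Atp5d, the delta subunit of the ATP synthase (1.42 and 0.99). Cyc1 read 4481 to 5982 and 4578 to 6478 in brain, against 2484 to 2604 and 2270 to 2447 in aorta. Cyc1 had a single tested probe set, and the probe sets of the rest were split in sign in at least 1 genotype. The other probe set of Uqcrc2 was called lower in both genotypes (-0.43 and -0.35), and that of Atp5d gave 0.07 and -0.35, the latter called. The dimmest tested probe set of Cox5a gave 0.06 and -0.15 and that of Ndufv1 -0.02 and -0.45, while their remaining ones gave positive values. With probe sets averaged Ndufv1 gave 0.59 in +/- (adjusted p = 0.0766), and without names ending in _s_at, _x_at or _a_at Cox5a gave 0.06 (adjusted p = 0.822). Sdha gave 0.57 and 0.67 (adjusted p = 0.00823 and 0.00113), with its other probe sets pointing the same way. Uqcrc1 gave 0.97 in +/- (adjusted p = 0.000685) and 0.30 in -/- (adjusted p = 0.172). Ndufs1, Sdhb, Sdhd, Cox5b and Atp5a1 lay between -0.30 and 0.40, with adjusted p from 0.0655 to 0.825. Other probe sets were called lower for Sdhd (-1.02 and -0.95) and called in both directions for Cox5b (from -1.32 to 1.22 in -/-), and 1 of Atp5a1 was called higher (1.09 and 0.62).

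Probe sets of the same subunit often gave opposite tissue differences. Of 46 members with at least 2 tested probe sets, the signs were split in 24 in +/- (52.2%, against 46.8% of all such genes) and in 32 in -/- (69.6%, against 49.0%). Called in opposite directions were 7 in +/- (15.2%, against 11% of all such genes): Cox6b1, Cycs, Ndufb2, Ndufc2, Ndufv2, Uqcrb and Uqcrc2, of which Ndufb2, Ndufc2 and Ndufv2 were picked out after their values were seen. In -/- there were 19 (41.3%, against 19.5%). The brighter probe set of Uqcrb read 15349 ± 2732 (SD, n = 4) in brain +/- and 6360 ± 220 (n = 3) in aorta +/-, a difference of 1.25. The dimmer read 196 ± 49.9 and 1182 ± 124, a difference of -2.52. Both were called (limma adjusted p = 0.000165 and 2.53e-06), and in -/- they gave 1.24 and -2.41. Cox6b1, the common form of subunit 6b, gave 0.67 and -1.48 in +/- and 0.58 and -1.44 in -/-, and Ndufc2, an accessory subunit of complex I, gave 1.29 and -2.21, then 1.29 and -2.65. Only 3 of the 21 genes higher in both genotypes had 2 or more tested probe sets that all pointed the same way (Sdha, Ndufb8 and Cox8c), as did 3 of the 19 lower (Sdhc, Uqcrh and Atp5o); 4 and 13 rested on a single tested probe set, and 14 and 3 had probe sets of split sign. Ndufb8 was named after its values were seen.

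**Figure D5:**
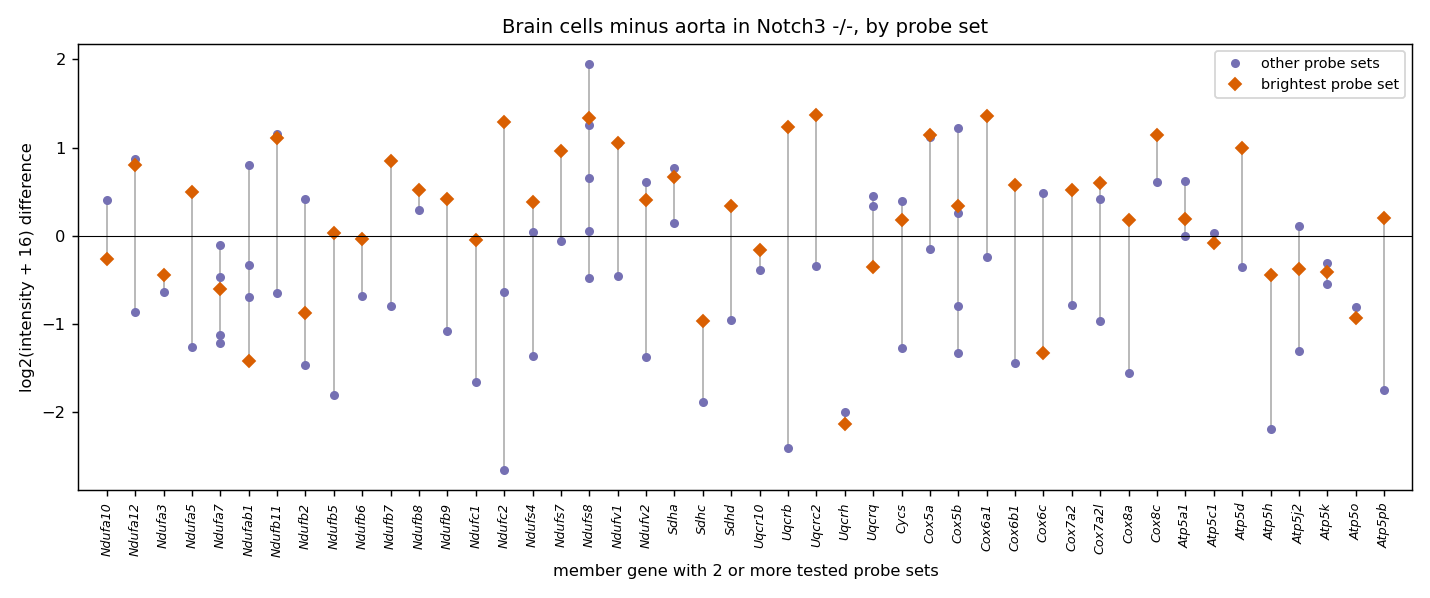
Brain minus aorta difference in Notch3 -/- (log2(intensity + 16)) for every tested probe set of the 46 members with at least 2; orange diamonds mark the brightest probe set of the gene and violet points the others, joined by a line. Lines that cross 0 are genes whose probe sets disagree in direction, such as Uqcrb (1.24 and -2.41); Uqcrh and Atp5o lie wholly below 0.

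The share of probe sets higher in brain differed with brightness, but not in 1 direction over the range. Brightness was the mean over all 15 arrays, 9 of them brain, so the tissue difference itself enters it. The brightest probe set of each gene was picked by the same mean, so tissue counts at those probe sets are not independent of it. Of the member probe sets with a mean intensity over 3000, 28 of 30 were higher in brain in +/- and 26 of 30 in -/- (72.8% and 70.0% of all probe sets that bright). Of those between 200 and 1000, 12 of 60 and 8 of 60 were (47.5% and 48.1%). Between 1000 and 3000 it was 18 of 34 in each genotype (52.9% and 54.8% of all), and under 200 it was 15 of 27 and 17 of 27 (55.1% and 57.2%). Across member probe sets the difference correlated with mean log2 level at r = 0.39 in +/- and 0.37 in -/- (n = 151 probe sets, which share the arrays), against 0.03 and 0.01 over all 22519. Brain arrays also had a wider range of signal: the 99th percentile of intensity was 3961 to 5024 in brain and 3546 to 3627 in aorta. Probe sets whose name ends in _a_at, _s_at or _x_at were higher in brain in 54.8% and 52.4% of 84 members, and those ending in _at alone in 40.3% and 37.3% of 67; over all probe sets the 2 kinds were alike (52.9% to 54.7%). The part of signal range and probe design in the tissue differences was not tested.

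Other genes of the pathway were taken from lists. Their counts stand beside shares of all genes called of 29% higher and 25.4% lower in +/-, and 35.3% and 29.8% in -/-. Of 39 tested assembly factors of the complexes, 4 were higher and 9 lower in brain in +/-, then 5 and 13 in -/- (medians -0.22 and -0.17). Of 16 tested enzymes of the TCA cycle 4 were higher and 8 lower, then 4 and 10 (medians -0.61 and -0.75). Of 17 regulators of mitochondrial biogenesis 8 were higher and 5 lower, then 10 and 4. No gene of these lists was called between Notch3 genotypes in either tissue, where 0.191% of all genes were in brain and 0% in aorta. Medians were -0.02, -0.10 and -0.05 in brain and -0.03, -0.04 and 0.01 in aorta. Some regulators are named after their values were seen. Ppargc1a, the coactivator PGC-1 alpha, read 156 to 338 in brain and 17.4 to 27.3 in aorta (2.60 and 2.57, limma adjusted p = 2.46e-06 and 1.11e-07). Esrra, an estrogen-related receptor, gave 0.86 and 0.75 (adjusted p = 0.00499 and 0.00694), whereas Tfam, which packages mitochondrial DNA, read 93.3 to 166 in brain and 346 to 418 in aorta (-1.43 and -1.27, adjusted p = 0.000105 and 5.31e-06). Nrf1 gave 0.36 and 0.66, called in -/- (adjusted p = 0.144 and 0.00179).

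In the 250 bases before the start, the NRF1 core CGCATGCG stood in 7 of the 68 members matched in RefSeq's table (10.3%), against 1.75% of all 27025 genes. The members' windows were richer in G and C (median 57.6%, against 52.4%), and CGCATGCG reads the same on both strands. CCGGAAG stood in 17.6% against 7.83%, CAAGGTCA in 4.41% against 1.51%, AAGATGGC in 1.47% against 1.83% and TATAAA in 10.3% against 14.3%. The 7 windows follow because they show the same core in subunits of 4 parts of the chain, with the core in capitals, 5′ to 3′ on the strand of the gene, all of GRCm38.p6 and on the minus strand.
Ndufa8, complex I (chr2:36049339-36049367): cgcttgcgcgtcgctggagaCGCATGCGc
Cycs, cytochrome c (chr6:50566603-50566650): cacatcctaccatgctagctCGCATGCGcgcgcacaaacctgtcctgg
Cox6a1, complex IV (chr5:115349092-115349139): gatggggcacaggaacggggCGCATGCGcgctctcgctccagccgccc
Atp5g2, complex V (chr15:102671061-102671108): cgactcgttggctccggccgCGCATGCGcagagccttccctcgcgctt
Atp5k, complex V (chr5:108434421-108434468): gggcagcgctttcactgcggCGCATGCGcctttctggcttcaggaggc
Atp5j, complex V (chr16:84835096-84835143): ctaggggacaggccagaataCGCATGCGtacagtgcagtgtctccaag
Atp5l, complex V (chr9:44920956-44920992): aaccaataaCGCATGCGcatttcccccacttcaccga
These genes did not move as a group between tissues. In +/- and -/-, Cox6a1 gave 1.56 and 1.35, Cycs 0.43 and 0.18, Atp5g2 0.56 and 0.37, Atp5j 0.36 and 0.30, Ndufa8 -0.05 and 0.05 and Atp5k -0.23 and -0.41, while Atp5l was below the filter in both. Between genotypes in brain they lay between -0.38 (Cycs) and 0.06 (Ndufa8). A match is a run of letters and says nothing of binding in these cells. Ndufa8, Atp5j and Atp5l are named for their windows.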

How the data were processed

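The files hold linear intensity per probe set on 15 Affymetrix mouse 430 2.0 arrays, which the authors scaled to a target intensity of 150, per the labels and the design text; the 2% trimmed mean was 150 on every array. How probes were summarised and background removed is not stated in these sources. Members and lists were chosen with earlier results of these data known. Groups came from sample titles. Symbols (1 per probe set; 34958 of 45101 probe sets, 932 with several and 9211 with none) were updated through a RefSeq table, assembly GRCm38.p6 (34754 matched). Each gene was read at its brightest probe set, by mean log2 level over all 15 arrays. Differences of log2(intensity + 16) went into limma (version 3.58.1, R 4.3.3; linear fits, moderated two-sided tests, variance trended on intensity). Calls were made at 5% after Benjamini-Hochberg adjustment over all probe sets at or above the median level (22519 per comparison); the 64 control probe sets were left out. Genotypes were compared within tissue, tissues within genotype, and the difference between tissues over all 15 arrays. Replicates correlated at r of 0.932 to 0.981. Named were the isoform families, core subunits and, per complex and comparison, the 2 smallest p; others are said to be outside that rule. Lists were assembly factors, TCA cycle, biogenesis regulators and markers of 14 cell types. Alternatives were another pseudocount, no filter, quantile normalization, no trend, array weights, probe sets averaged or without the endings _s_at, _x_at and _a_at, all arrays in 1 fit, the series of aorta names as a block, older symbols (which gave the same 173 probe sets), and leaving out each array. The fits were tested on simulated data.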

Additional observations from a re-analysis of the deposited data

Results flagged for a closer look

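Single arrays stood apart from the rest of their group in 7 of 106 groups of values examined; chance does so in about 1 of 20. Array H of brain Notch3 +/- was the highest for 3 of them. It read 16655 for Atp5d, against 6992 to 7565 in the other +/- arrays, and 4770 for Cycs, against 3658 to 3755. Its mean deviation for cytochrome c was 0.483, against 0.101 to 0.139. That score rests on Cycs alone, so this flag repeats the flag of Cycs and is not a separate observation. Without array H the difference in Cycs between genotypes was -0.29. Array C of brain Notch3 -/- was the lowest for Cox6a1 (13374, against 17499 to 18985) and for Uqcrb (10302, against 13883 to 15160). Array A was the lowest for Atp5b, at 903 against 1578 to 1683, and array F the highest for Ndufb10, at 600 against 306 to 365. None of these 4 genes was called between genotypes with all arrays.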

How the results depend on the processing

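No paired analysis was possible because replicate names are not shared between groups. No member was called between genotypes, or for the difference between tissues, under any alternative; with the series of aorta names as a block the smallest adjusted p in aorta was 0.997 (limma). In simulated brain data the test recovered 2% of probe sets changed 1.5-fold, 32% at 2-fold, 70% at 4-fold and 62% at 8-fold. Those falling below the filter counted as missed. Changed probe sets were drawn from all above the median level. Of all tested between tissues, 13779 of 22519 had a mean intensity under 200, against 27 of 151 member probe sets. Recovery for members was not measured, and small genotype differences may lie below what these arrays resolve. The number of arrays limits precision, and dim isoforms (Cox4i2, Cox6b2, Cox7b2) carry little signal. Tissue counts depended on the probe set. Averaging probe sets left 15 members higher in brain in each genotype, and using only names ending in _at alone 6 in +/- and 5 in -/-. The medians over members were then -0.22 and -0.27 (averaged), and -0.40 and -0.64 (_at alone).

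By complex, averaging gave -0.13 and -0.14 in complex II and -0.17 and -0.12 in complex IV (+/- and -/-), and in -/- also -0.21 in complex I and -0.58 in complex V. With _at alone the medians were -0.46 and -0.66 in complex I, -0.74 and -1.0 in complex III, -0.33 and -0.47 in complex IV, -0.46 and -0.69 in complex V, and 0.03 in complex II in -/-. Quantile normalization gave 0.13 and 0.23 in complex IV. Leaving out 1 array, the complex III median ran from -0.18 (without 6167) to -0.06 between aorta genotypes and, between tissues in +/-, from -0.27 to 0.04 (without G or I), and that of complex IV from 0.16 (without 5561) to 0.40. The brain genotype median ran from -0.20 (without F) to -0.05 (without H).

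Some named genes changed sign. With probe sets averaged, tissue differences in +/- were -0.41 for Cox6b1, -0.12 for Cox7a2, -0.16 for Cox7a2l, -0.45 for Cox8a, -0.17 for Cox5b and 0.23 for Atp5g1, and in -/- -0.43 for Cox6b1, -0.14 for Cox7a2, -0.43 for Cox8a, -0.04 for Cox5b, -0.03 for Cycs and -0.59 for Uqcrb. With _at alone they were -1.48 and -1.44 for Cox6b1, -0.72 and -0.79 for Cox7a2, -0.02 and -0.45 for Ndufv1, and in -/- -0.15 for Cox5a and -2.41 for Uqcrb. Quantile normalization gave -0.27 for Cox4i1 in +/-, and -0.03 for Atp5a1, -0.02 for Cox5b and -0.06 for Sdhb in -/-. Array weights gave -0.09 for Cox4i1 and -0.02 for Cox4i2 in +/-. Leaving out 1 array moved the tissue difference across 0 for Atp5g1 (-0.21 to 0.17), Cox4i1 (-0.07 to 0.13), Cox4i2 (-0.01 to 0.46) and Cox8a (-0.05 to 0.22) in +/- and for Sdhb (-0.01 to 0.10) in -/-. Between genotypes, Sdhd ran from -0.02 (without H) to 0.39 in brain, and in aorta gave -0.04 with array weights and -0.10 to 0.22 without 1 array. Sdha gave 0.04 in aorta with _at alone and -0.18 to 0.07 without 1 array, Ndufab1 0.05 with _at alone and Atp5g1 0.13 with probe sets averaged. For the difference between tissues, Sdha gave -0.08 averaged, -0.01 with _at alone and -0.03 (without 5559) to 0.22 without 1 array, and Ndufs4 -0.02 with _at alone. In the averaged and _at settings the sign follows from the other probe sets of the gene; elsewhere the cause was not tested.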
